A study of Drosophila melanogaster with 15 samples.

Results

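Transcripts of chromatin regulators and nucleosome proteins were examined in whole male fruit flies (Drosophila melanogaster) with and without Dsup, a tardigrade protein that binds nucleosomes and shields DNA. The genes were chosen by name, for their known roles, as a list of 48, with earlier results of these data known. The share of them called thus describes this list and is not a test of it. Of these, 39 had a probe set annotated with that gene alone, among 11982 genes so measured; 38 matched by their exact symbol and the chaperone listed as Asf1 is spelled asf1 in the annotation. Acf, ph-p, ash1, Su(var)3-9, HmgD, HmgZ, Gcn5, Top2 and Lam were not analysed here. The brightest probe set stands for each gene, and 5 of the 39 (Chd3, CAF1-p180, esc, Su(var)3-7 and LBR) had a mean log2 level below 3.35, the 40th percentile of all probe sets, where array signal is dim. The CAF-1 subunits named CAF1-p180 and CAF1-p105 and the heterochromatin protein gene named HP1a are NCBI genes 31801, 36107 and 34119.

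The samples were whole bodies of 25 adult males aged 3 days, with 1 Affymetrix array per sample. Untreated control flies gave 4 arrays, untreated flies of Dsup lines 1 to 4 gave 4, control flies given 1000 Gy of ionizing radiation gave 3, and the same Dsup lines 1 to 4 given 1000 Gy gave 4. The labels name neither the promoter that drives Dsup nor the stock behind the controls, and no probe set reports Dsup, so its level was not checked. The interval between irradiation and RNA isolation is not given in the sources used here. All levels are log2 values after quantile normalization of the 15 arrays, and array values are listed in order of control replicate or Dsup line number.

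Eukaryotic DNA is wrapped around histone octamers to form nucleosomes. Chaperones deliver histones, ATP-driven remodellers slide, evict or exchange them, and enzymes add or remove acetyl and methyl groups that other proteins read. Polycomb group proteins keep genes silent and trithorax group proteins keep them active, while heterochromatin proteins compact repeats and insulator and lamina proteins partition the genome. After DNA breaks, histone variants are phosphorylated and remodellers and acetyltransferases open the chromatin around the lesion.

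The arrays differed in ways that touch every result below. The deposited values carried an offset for each group, with group means of 4.63, 4.04, 4.87 and 4.49 in the order given above, and quantile normalization removed it. As deposited, the typical (median) probe set shifted by -0.61 between untreated genotypes, -0.39 between irradiated genotypes, 0.23 with radiation in controls, 0.47 with radiation in Dsup lines and 0.23 in the interaction. The 3 irradiated control arrays repeated many deposited values: 24 of the 39 genes had a value shared by at least 2 of the arrays and 15 had the same value on all 3, against 0 in every other group. These 15 were Iswi, mor, Chd3, CAF1-p105, Sce, trx, ash2, HP1a, Su(var)3-7, HP4, D1, His2Av, Sirt1, mod(mdg4) and LBR. Their irradiated control levels below differ only through normalization and rest on 1 deposited value. The repeats lower the spread that the tests use, so each call below that was lost when the spread was estimated from the other 12 arrays is named with that p. That estimate still counts the irradiated controls as 3 separate arrays, so calls that survive it may still rest on repeated values. Hybridization spike-in signals split the arrays into set 1, with untreated controls 1 and 2, irradiated controls 1 and 2 and Dsup line 1 in both treatments, and set 2, with the other 9. Set 1 thus holds 1 Dsup array of each treatment, and its Dsup changes have no replicates. Set 2 holds irradiated control 3 as its only irradiated control. Values within set 2 for radiation in controls, for irradiated genotypes and for the interaction thus have no replicate of that group. The difference between probe sets at the 3' and 5' ends of control transcripts, which grows as RNA degrades, averaged 0.996, 1.13, 1.41 and 1.33 in the 4 groups, higher on both irradiated groups. The signal of 18S ribosomal RNA minus the array median was 3.13 on untreated control 4 and 6.93 to 8.21 on all other arrays. As the male label predicts, 7 of 9 female markers lay below the 40th percentile, compared with 4 of 15 testis genes and 0 of 8 accessory gland genes.

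Each probe set was tested with limma in 1 model over all 15 arrays, and a gene was called at a Benjamini-Hochberg adjusted p below 0.05 over 18769 probe sets. The SE is that of the fitted log2 difference. The 5 comparisons share arrays, so their results are not independent of each other.

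Radiation in control flies gave the most calls among these genes on quantile-normalized values, though not on the deposited values. Ada2b, a subunit of the SAGA histone acetyltransferase complex, rose 3.28-fold and the histone chaperone asf1 rose 2.40-fold, while trx, ash2 and the remodeller subunit osa fell 2.64-fold, 2.43-fold and 2.49-fold. In all, 18 of 39 genes were called, which is 46.2% against 34% of all probe sets and 36.3% of all genes. Of these 10 were higher and 8 lower, where 16.9% of all probe sets were higher and 17.1% lower. The median change was 0.06, against 0.00 over all genes. On the deposited values the split was 21 higher and 4 lower, where 49.5% of all probe sets were called. These were fewer calls than in the Dsup response or between genotypes in either treatment. With the 3' minus 5' difference as a covariate, 7 calls were left (osa, Chd1, asf1, trx, ash2, Su(var)3-7 and Sirt1), against 8.98% of all probe sets. Without irradiated control 1 there were 12, where 24.6% of all probe sets were called.

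The same treatment in Dsup lines gave a smaller set. Transcripts of osa, trx, ash2 and the NURF subunit E(bx) fell again, Sirt1 and 4 others rose, and asf1 changed by only 0.01 ± 0.10 (SE, adjusted p = 0.963). Of the 39 genes, 11 were called, which is 28.2% against 21.3% of all probe sets. Of these 5 were higher and 6 lower, where 10.7% and 10.6% of all probe sets were. The median was -0.03, against 0.01 over all genes, and on the deposited values 30 genes were called higher and 2 lower. With the 3' minus 5' covariate 5 calls were left (E(bx), osa, Su(z)12, trx and Sirt1), where 10.7% of all probe sets were called.

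Tested directly, the radiation response differed between genotypes for 8 of 39 genes, or 20.5%, against 9.08% of all probe sets. The response of Dsup lines was below that of controls for Ada2b, asf1, LBR, Sce, Su(z)12 and Psc, and above it for trx and CAF1-p180. Among all probe sets it was above for 4.31% and below for 4.77%. The median interaction was -0.01, against 0.02 over all genes. On the deposited scale 7 genes were called higher and 3 lower, where 22.9% of all probe sets were called. Estimating the spread without the irradiated controls left CAF1-p180, asf1, Psc and LBR, where 5.18% of all probe sets were called. Leaving out irradiated control 1, 2 or 3 left 4, 4 and 3 calls, where 4.72%, 4.61% and 5.11% of all probe sets were called. Leaving out irradiated Dsup line 2 left 5, where 6.82% of all probe sets were called.

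In irradiated flies, the genotypes differed for 11 of 39 genes, 28.2% against 12% of all probe sets. Those higher in Dsup lines were mor, Chd1, Mi-2 and CAF1-p180, and those lower were Ada2b, asf1, LBR, Su(z)12, Su(var)3-7, Sirt1 and Psc. Among all probe sets 5.97% were higher and 6.06% lower. The median was -0.02, against 0.00 over all genes. The deposited values put 0 genes higher and 30 lower, where 61.8% of all probe sets were called. With the spread estimated without the irradiated controls, asf1, Su(z)12, Psc, Ada2b and LBR kept their calls, 5 of 39 where 8.09% of all probe sets were called. Leaving out irradiated control 1, 2 or 3 left 2, 4 and 4 calls, where 5.89%, 5.62% and 6.59% of all probe sets were called. Leaving out irradiated Dsup line 2, 3 or 4 left 6, 5 and 4 calls, where 8.9%, 8.35% and 8.61% of all probe sets were called.

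In untreated flies, Dsup lines differed from controls for 4 of 39 genes, or 10.3%, near the 10.7% of all probe sets. Those higher were asf1, HDAC1 and Sce, and the remodeller ATPase Iswi was lower, where 5.42% of all probe sets were higher and 5.25% lower. The median was 0.00, against -0.02 over all genes, and no call reached 2-fold. On the deposited values 38 genes were called, all lower, where 89.2% of all probe sets were called. With the spread estimated without the irradiated controls only asf1 was called, where 6.07% of all probe sets were. A limma fit of the untreated groups alone called 0, with 7 at an unadjusted p below 0.05, against 2.7% of all probe sets called. Leaving out an array left between 1 and 4 calls, 1 without untreated control 3 or untreated Dsup line 3 and 2 without untreated control 2 or 4, untreated Dsup line 2, irradiated Dsup line 3 or any 1 irradiated control.

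**Figure D1:**
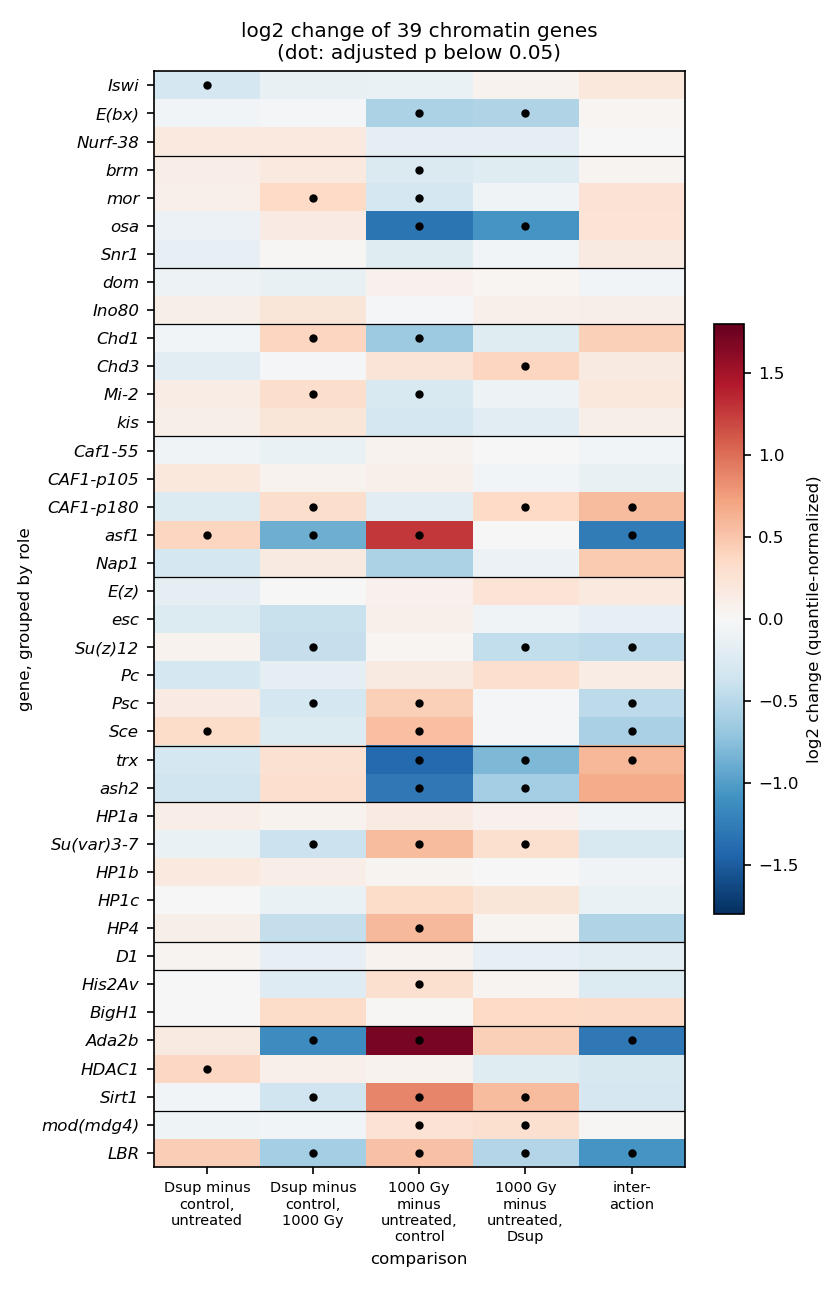
Colours give the log2 change of each of the 39 genes (rows, grouped by role) in 5 comparisons (columns), and a dot marks an adjusted p below 0.05. The columns for radiation in control flies and in Dsup lines hold 18 and 11 dots, the column for Dsup in untreated flies 4, on quantile-normalized values. On the deposited scale signs turn, also for 3 of the 4 calls between untreated genotypes and 4 of the 11 between irradiated genotypes.

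**Figure D2:**
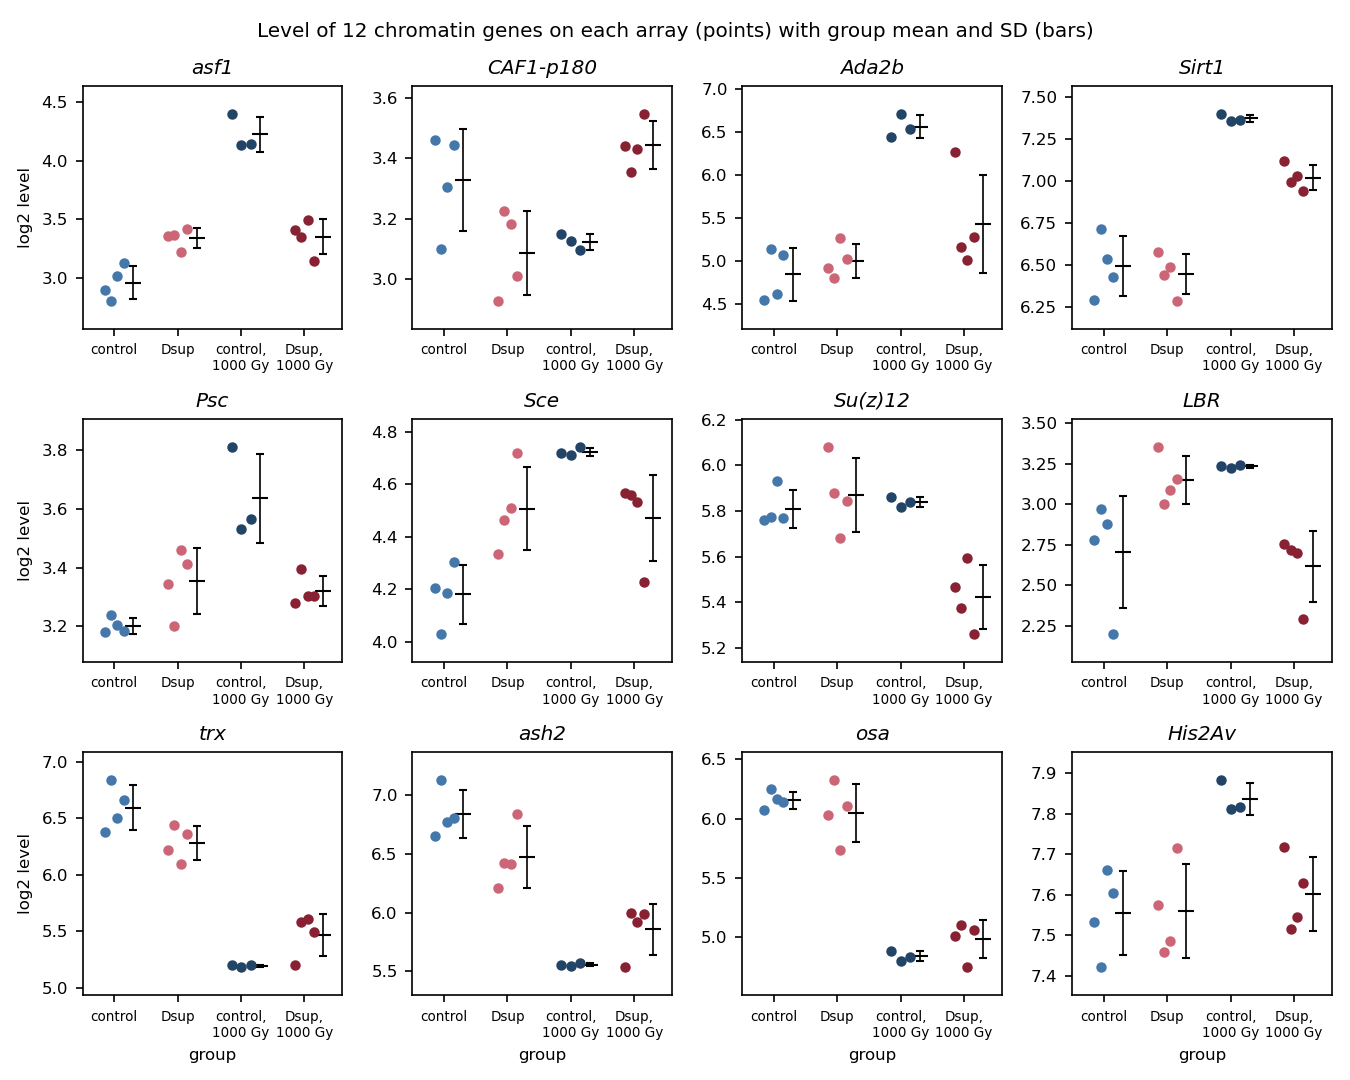
Points give the log2 level of 12 genes on each array, by group, with the group mean and SD beside them (4, 4, 3 and 4 arrays). For asf1, Ada2b and Sirt1 the irradiated controls lie above all untreated arrays, and for trx, ash2 and osa all irradiated arrays lie below all untreated ones; the vertical scales differ between panels.

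Among the histone chaperones, asf1 carried the largest differences. It encodes a carrier of histones H3 and H4 that hands them to the assembly factor CAF-1 and to other chaperones. Levels were 2.89, 2.80, 3.01 and 3.12 in untreated controls and 3.36, 3.37, 3.22 and 3.42 in untreated Dsup lines. After 1000 Gy they were 4.40, 4.13 and 4.14 in controls and 3.41, 3.34, 3.49 and 3.14 in Dsup lines. The irradiated controls stood above every other array, and the untreated controls below every other array, while the Dsup lines read alike with and without radiation. Group means were 2.958 in untreated controls, 3.340 in untreated and 3.348 in irradiated Dsup lines, all below the dim cutoff of 3.352. Only the irradiated controls, at 4.224, lay above it, so asf1 passed the cutoff through that group. In controls asf1 rose by 1.27 ± 0.10 (SE, 2.40-fold, adjusted p = 1.41e-06) with radiation, and by 1.42 and 1.07 within spike-in sets 1 and 2. In Dsup lines the change was 0.01 ± 0.10 (SE, adjusted p = 0.963), and the interaction was -1.26 ± 0.14 (SE, adjusted p = 0.000266), with -1.37 and -1.08 within the 2 sets. After radiation the difference of Dsup lines from controls was -0.88 ± 0.10 (SE, 1.83-fold, adjusted p = 0.000172). Before radiation they were higher by 0.38 ± 0.10 (SE, 1.30-fold, adjusted p = 0.0214), a sign that turned to -0.22 on the deposited scale. The untreated difference was called in 14 of 15 fits with an array left out, and the other asf1 calls in all 15. The untreated call was lost with the 3' minus 5' covariate, with dim probe sets left out and in the fit of the untreated groups alone. It was also lost as deposited and with line and control number as a block.

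Markers of dividing cells moved in the direction of asf1 with radiation in controls, between irradiated genotypes and in the interaction. Of the 11 in that list, 7 were higher after radiation in controls, where 16.9% of all probe sets were. In Dsup lines, where asf1 was not called, 3 were higher, against 10.7% of all probe sets. After radiation 4 were lower in Dsup lines than in controls, against 6.06% of all probe sets. In the interaction 4 were lower, against 4.77% of all probe sets. Between untreated genotypes, where asf1 was called, 0 of the 11 were, though all 11 differences were positive like that of asf1, from 0.03 to 0.40. The mean log2 level of the 11 markers ran from 2.88 to 3.12 in untreated controls, 3.16 to 3.29 in untreated Dsup lines, 3.67 to 3.78 in irradiated controls and 3.31 to 3.56 in irradiated Dsup lines, with 4 of the 11 below the 40th percentile. Their part in the asf1 result was not tested, and in whole flies fewer cells of a type and less RNA per cell cannot be told apart.

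CAF1-p180, the largest subunit of CAF-1, which places H3 and H4 on newly copied DNA, went the other way. Untreated levels were 3.46, 3.10, 3.31 and 3.45 in controls and 2.93, 3.22, 3.18 and 3.01 in Dsup lines. Irradiated levels were 3.15, 3.13 and 3.09 in controls and 3.44, 3.35, 3.43 and 3.55 in Dsup lines. All 4 irradiated Dsup arrays lay above the other Dsup arrays and above the irradiated controls, but untreated controls overlapped them. With radiation, CAF1-p180 rose by 0.36 ± 0.09 (SE, 1.28-fold, adjusted p = 0.0122) in Dsup lines, while the change in controls was -0.21 ± 0.10 (SE, adjusted p = 0.122). The interaction was 0.56 ± 0.13 (SE, adjusted p = 0.0178), with 0.66 and 0.59 within spike-in sets 1 and 2, and was lost without irradiated control 3 (adjusted p = 0.0511). After radiation the gene was higher in Dsup lines by 0.32 ± 0.10 (SE, 1.25-fold, adjusted p = 0.0460), a call lost with the spread estimated without irradiated controls (adjusted p = 0.0911), with line as a block (adjusted p = 0.0662) and as deposited, where the difference was -0.05. Its level near the dim end of the array range limits all 3 calls.

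The other 2 CAF-1 subunits and Nap1, a chaperone of histones H2A and H2B, were called in none of the 5 comparisons. Caf1-55, a WD-repeat protein that CAF-1 shares with several other chromatin complexes, had log2 changes from -0.12 to 0.06. CAF1-p105 ran from -0.14 to 0.20. Nap1 had the widest spread, an SD of 0.43 over untreated controls, and its change of -0.57 ± 0.22 (SE, adjusted p = 0.0624) with radiation in controls did not pass the test.

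The acetylation group held the largest single response. Ada2b levels were 4.55, 5.14, 4.62 and 5.07 in untreated controls and 4.92, 4.81, 5.27 and 5.02 in untreated Dsup lines. After radiation they were 6.44, 6.71 and 6.53 in controls and 6.27, 5.17, 5.01 and 5.28 in Dsup lines. Irradiated Dsup line 1 stood with the irradiated controls, and lines 2 to 4 stood with the untreated arrays. The rise in controls was 1.71 ± 0.24 (SE, 3.28-fold, adjusted p = 9.85e-05), with 1.73 and 1.68 within spike-in sets 1 and 2. Dsup lines changed by 0.43 ± 0.22 (SE, adjusted p = 0.186), by 1.35 in line 1, the only line of set 1, and by 0.12 over lines 2 to 4. After radiation the difference of Dsup lines from controls was -1.13 ± 0.24 (SE, 2.18-fold, adjusted p = 0.00699), and the difference within set 1 was -0.31 and within set 2 -1.38. The interaction was -1.29 ± 0.33 (SE, adjusted p = 0.0245); it was -0.38 and -1.56 within the 2 sets, -1.57 without irradiated Dsup line 1, and its adjusted p was 0.0501 with the spread estimated without irradiated controls. Between untreated genotypes the difference was 0.16 ± 0.22 (SE, adjusted p = 0.693). The interaction call was lost when irradiated control 2 or 3 or irradiated Dsup line 2 or 3 was left out, with an adjusted p of at most 0.0728.

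Sirt1, an NAD-dependent deacetylase, rose in both genotypes. Levels were 6.29, 6.71, 6.54 and 6.43 in untreated controls and 6.57, 6.44, 6.49 and 6.29 in untreated Dsup lines. With radiation they reached 7.40, 7.36 and 7.36 in controls and 7.12, 6.99, 7.03 and 6.94 in Dsup lines. No irradiated array overlapped an untreated one, and every irradiated Dsup line lay below every irradiated control. The rise was 0.88 ± 0.10 (SE, 1.84-fold, adjusted p = 1.41e-05) in controls and 0.57 ± 0.09 (SE, 1.49-fold, adjusted p = 0.000567) in Dsup lines. Within spike-in sets 1 and 2 the changes were 0.87 and 0.88 in controls and 0.54 and 0.58 in Dsup lines. The rise in controls was called under every one of the 14 other settings and 15 left-out arrays, and that in Dsup lines under all but the fit within set 1, where Dsup lines have 1 array of each treatment. Because the 3 irradiated controls share 1 deposited Sirt1 value, leaving out 1 of them could barely move their mean. The interaction, -0.31 ± 0.13 (SE, adjusted p = 0.164), was not called. The lower level of irradiated Dsup lines, -0.35 ± 0.10 (SE, adjusted p = 0.0272), was lost with the spread estimated without irradiated controls (adjusted p = 0.0608). Between untreated genotypes the difference was -0.04 ± 0.09 (SE, adjusted p = 0.797).

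HDAC1, the class I deacetylase also known as Rpd3, was not called after radiation, with changes of 0.06 ± 0.12 (SE, adjusted p = 0.727) in controls and -0.22 ± 0.12 (SE, adjusted p = 0.194) in Dsup lines. Untreated levels were 4.69, 4.17, 4.61 and 4.44 in controls and 4.74, 4.95, 5.01 and 4.74 in Dsup lines, and all 4 lines lay above all 4 controls. The difference of 0.38 ± 0.12 (SE, adjusted p = 0.0477) was close to the threshold. It was called in 4 of 15 fits with an array left out, had an adjusted p of 0.0858 without the irradiated controls in the spread and 0.0510 with line as a block, and was -0.31 on the deposited scale. After radiation the genotypes differed by 0.10 ± 0.12 (SE, adjusted p = 0.678), and the interaction was -0.28 ± 0.17 (SE, adjusted p = 0.334).

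Of the listed trithorax group genes, trx and ash2 were measured, and both fell with radiation in both genotypes. Of 14 other trithorax group genes in a wider list, 5 fell in controls and 1 in Dsup lines, against 17.1% and 10.6% of all probe sets. The gene trx encodes a histone H3 methyltransferase, and ash2 a subunit that the complexes of this class of enzymes share. For trx, levels were 6.38, 6.84, 6.51 and 6.66 in untreated controls and 6.22, 6.44, 6.10 and 6.37 in untreated Dsup lines. After radiation they were 5.20, 5.18 and 5.20 in controls and 5.20, 5.58, 5.61 and 5.49 in Dsup lines. All irradiated arrays lay below all untreated ones, and Dsup line 1 matched the controls while lines 2 to 4 stayed above them. The change was -1.40 ± 0.12 (SE, 2.64-fold, adjusted p = 2.18e-06) in controls and -0.81 ± 0.11 (SE, 1.75-fold, adjusted p = 0.000224) in Dsup lines. The spike-in sets taken alone, 1 then 2, gave -1.41 and -1.39 in controls and -1.02 and -0.74 in Dsup lines. The interaction for trx was 0.59 ± 0.16 (SE, adjusted p = 0.0370), with 0.39 and 0.65 within the sets. It was called in 5 of 15 fits with an array left out, with an adjusted p of up to 0.0886, and had an adjusted p of 0.0778 when the irradiated controls did not enter the spread.

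The pattern of ash2 was close to that of trx. Levels were 6.65, 7.13, 6.77 and 6.81 in untreated controls and 6.21, 6.42, 6.42 and 6.84 in untreated Dsup lines, against 5.56, 5.54 and 5.57 in irradiated controls and 5.54, 5.99, 5.92 and 5.99 in irradiated Dsup lines. Again all irradiated arrays lay below all untreated ones, and irradiated Dsup line 1 sat with the controls. The change was -1.28 ± 0.15 (SE, 2.43-fold, adjusted p = 2.10e-05) in controls and -0.61 ± 0.14 (SE, 1.53-fold, adjusted p = 0.00585) in Dsup lines. Fitted within sets 1 and 2, it was -1.34 and -1.22 in controls and -0.67 and -0.59 in Dsup lines. The interaction of 0.67 ± 0.20 (SE, adjusted p = 0.0509) missed the threshold narrowly and was called with line as a block (adjusted p = 0.0199). Neither gene was called between genotypes, where trx was -0.31 and ash2 -0.37 in Dsup lines untreated, and 0.28 and 0.30 irradiated. The irradiated differences were -0.18 and -0.18 as deposited. The falls in controls were called under all 14 other settings and with every array left out. For both genes the 3 irradiated controls share 1 deposited value, so leaving out 1 of them could barely move their mean.

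Neuronal markers fell beside these genes, 5 of 9 in controls and 4 of 9 in Dsup lines, where 17.1% and 10.6% of all probe sets fell. Their mean log2 level ran from 5.34 to 5.92 in untreated controls, 5.36 to 5.74 in untreated Dsup lines, 5.19 to 5.35 in irradiated controls and 5.11 to 5.36 in irradiated Dsup lines, and 1 of the 9 lay below the 40th percentile. Fat body markers moved the opposite way in controls, with 5 of 7 higher after radiation and mean levels from 6.31 to 7.67 untreated and 8.38 to 8.64 irradiated. In Dsup lines 1 of those 7 was higher, with means of 7.78 to 8.98 untreated and 8.30 to 9.05 irradiated. Accessory gland genes were higher in 6 of 8 cases in controls and in 1 of 8 in Dsup lines. Of all probe sets, 16.9% were higher in controls and 10.7% in Dsup lines. The part of these markers in the results for chromatin genes was not tested.

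**Figure D3:**
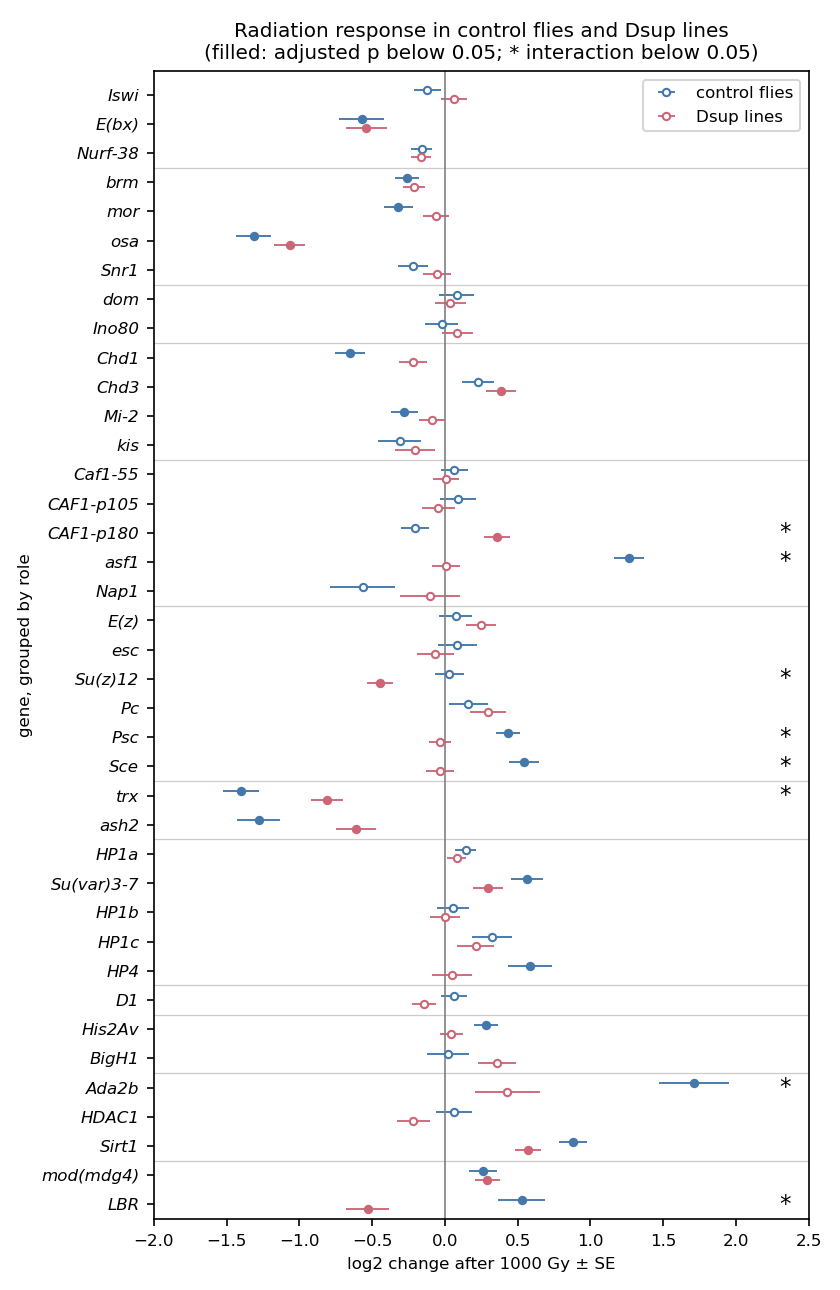
Each gene's log2 change after 1000 Gy (horizontal axis, with SE) is drawn for control flies and Dsup lines; filled points have an adjusted p below 0.05 and an asterisk marks a called interaction. The 8 asterisks include asf1, at 1.27 in controls and 0.01 in Dsup lines, and LBR, at 0.53 and -0.53.

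In the SWI/SNF remodeller, the change centred on osa, the subunit that marks the BAP form of the complex. Levels were 6.07, 6.25, 6.16 and 6.14 in untreated controls and 6.03, 6.32, 5.74 and 6.11 in untreated Dsup lines, against 4.88, 4.80 and 4.83 in irradiated controls and 5.01, 5.11, 4.75 and 5.06 in irradiated Dsup lines. No irradiated array overlapped an untreated one. The change with radiation was -1.32 ± 0.12 (SE, 2.49-fold, adjusted p = 2.94e-06) in controls and -1.07 ± 0.11 (SE, 2.10-fold, adjusted p = 2.02e-05) in Dsup lines. Spike-in sets 1 and 2 fitted separately gave -1.32 and -1.32 in controls and -1.01 and -1.09 in Dsup lines. The interaction was 0.25 ± 0.16 (SE, adjusted p = 0.371), and the genotypes differed by 0.14 ± 0.12 (SE, adjusted p = 0.488) after radiation.

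The ATPase of the complex and its other subunits moved less. The ATPase gene brm changed by -0.26 ± 0.08 (SE, adjusted p = 0.0236) in controls and -0.21 ± 0.08 (SE, adjusted p = 0.0620) in Dsup lines, and both were positive as deposited, at 0.03 and 0.26. The scaffold subunit gene mor was 5.81 ± 0.10 and 5.49 ± 0.01 in untreated and irradiated controls and 5.91 ± 0.10 and 5.85 ± 0.18 in Dsup lines (mean ± SD). It changed by -0.32 ± 0.10 (SE, 1.25-fold, adjusted p = 0.0201) in controls, with -0.38 and -0.25 within the 2 spike-in sets, and changed by -0.06 ± 0.09 (SE, adjusted p = 0.668) in Dsup lines. After radiation it was higher in Dsup lines by 0.36 ± 0.10 (SE, 1.28-fold, adjusted p = 0.0286); this call was lost without the irradiated controls in the spread (adjusted p = 0.0629), and the deposited difference was -0.11. Snr1, a core subunit, was not called, with -0.22 ± 0.11 (SE, adjusted p = 0.121) in controls and -0.05 ± 0.10 (SE, adjusted p = 0.729) in Dsup lines. After radiation the genotypes differed by 0.18 ± 0.08 (SE, adjusted p = 0.187) for brm and 0.02 ± 0.11 (SE, adjusted p = 0.918) for Snr1.

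Of the ISWI and NURF genes, E(bx), the largest NURF subunit, fell in both genotypes. Levels were 5.32, 5.98, 5.85 and 5.82 in untreated controls and 5.87, 5.92, 5.30 and 5.69 in untreated Dsup lines, against 5.21, 5.19 and 5.11 in irradiated controls and 5.06, 5.21, 5.20 and 5.15 in irradiated Dsup lines. Every irradiated array was below every untreated one, and untreated control 1 and untreated Dsup line 3 were the nearest to them. The change was -0.57 ± 0.15 (SE, 1.49-fold, adjusted p = 0.00902) in controls and -0.54 ± 0.14 (SE, 1.46-fold, adjusted p = 0.0133) in Dsup lines. Within spike-in sets 1 and 2 the changes were -0.45 and -0.73 in controls and -0.81 and -0.45 in Dsup lines. As deposited, the calls were lost, with changes of -0.33 and -0.09. The interaction for E(bx) was 0.03 ± 0.21 (SE, adjusted p = 0.948), and between untreated genotypes the difference was -0.05 ± 0.14 (SE, adjusted p = 0.865).

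Iswi, the ATPase shared by NURF and other ISWI complexes, was not called after radiation, with -0.12 ± 0.09 (SE, adjusted p = 0.349) in controls and 0.06 ± 0.09 (SE, adjusted p = 0.652) in Dsup lines. Untreated levels were 6.95, 6.94, 6.98 and 7.13 in controls and 6.78, 6.71, 6.59 and 6.64 in Dsup lines, without overlap. The difference was -0.32 ± 0.09 (SE, adjusted p = 0.0309), with -0.17 and -0.41 within spike-in sets 1 and 2, and the adjusted p was 0.0692 with the spread estimated without irradiated controls. It was lost when untreated control 3 or 4 or untreated Dsup line 2, 3 or 4 was left out, with an adjusted p of up to 0.0788. Nurf-38, the NURF subunit that is also an inorganic pyrophosphatase, was not called, at 0.18 ± 0.07 (SE, adjusted p = 0.0957) between untreated genotypes, -0.16 ± 0.07 (SE, adjusted p = 0.101) with radiation in controls and -0.17 ± 0.07 (SE, adjusted p = 0.0906) in Dsup lines.

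The CHD class split by gene. Chd1, a remodeller that helps place the H3 variant used outside replication, read 5.82, 5.87, 5.84 and 6.14 in untreated controls and 5.76, 6.06, 5.67 and 5.97 in untreated Dsup lines. After radiation it read 5.23, 5.32 and 5.24 in controls and 5.62, 5.63, 5.62 and 5.71 in Dsup lines. The irradiated controls were lowest, with no overlap with any other group, and the irradiated Dsup arrays overlapped the lowest untreated Dsup array. It changed by -0.65 ± 0.10 (SE, 1.57-fold, adjusted p = 0.000212) in controls, with -0.57 and -0.75 within spike-in sets 1 and 2, and changed by -0.22 ± 0.09 (SE, adjusted p = 0.109) in Dsup lines. The interaction was 0.43 ± 0.14 (SE, adjusted p = 0.0628) and was not called. In irradiated flies Chd1 was higher in Dsup lines by 0.38 ± 0.10 (SE, 1.30-fold, adjusted p = 0.0223), with an adjusted p of 0.0504 when the irradiated controls did not enter the spread and a deposited difference of -0.08.

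Mi-2, the ATPase of the NuRD complex, was also lowest in irradiated controls. It was 6.16 ± 0.15 in untreated controls, 6.29 ± 0.11 in untreated Dsup lines, 5.88 ± 0.08 in irradiated controls and 6.20 ± 0.11 in irradiated Dsup lines (mean ± SD). The fall in controls, -0.28 ± 0.10 (SE, adjusted p = 0.0352), and the higher level of irradiated Dsup lines, 0.32 ± 0.10 (SE, adjusted p = 0.0405), were both lost without the irradiated controls in the spread (adjusted p = 0.0592 and 0.0761) and turned to 0.00 and -0.15 as deposited. In Dsup lines the change with radiation was -0.09 ± 0.09 (SE, adjusted p = 0.490). Chd3, a relative of Mi-2 that acts outside NuRD, rose in Dsup lines by 0.39 ± 0.10 (SE, 1.31-fold, adjusted p = 0.0162), from 2.73, 3.18, 2.99 and 2.63 to 3.18, 3.32, 3.43 and 3.15, with 1 untreated array inside the irradiated range and all values at the dim end. The call was lost without irradiated Dsup line 3 (adjusted p = 0.0519), and in controls the change was 0.23 ± 0.11 (SE, adjusted p = 0.132). After radiation Chd3 differed between genotypes by -0.04 ± 0.11 (SE, adjusted p = 0.866). The gene kis, of the CHD7 family, was not called, with -0.31 ± 0.15 (SE, adjusted p = 0.120) in controls, -0.20 ± 0.14 (SE, adjusted p = 0.312) in Dsup lines and 0.22 ± 0.15 (SE, adjusted p = 0.383) between irradiated genotypes.

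The remodellers dom, which exchanges the variant His2Av in the Tip60 complex, and Ino80 were called in no comparison. For dom, changes on the probe set that represents it ran from -0.13 to 0.08. A dimmer dom probe set at a mean level of 4.98 fell by 0.58 ± 0.11 (SE, adjusted p = 0.000865) in controls and by 0.46 ± 0.10 (SE, adjusted p = 0.00486) in Dsup lines. The remaining dom probe set was not called, so the 3 disagree. For Ino80 the changes ran from -0.02 to 0.21.

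In the Polycomb group, the response to radiation differed between genotypes for Psc, Sce and Su(z)12 by the interaction test, and E(z), esc and Pc were called in no comparison. The interaction calls of Psc, Sce and Su(z)12 were lost as deposited and with the 3' minus 5' covariate. They were also lost with probe sets below the 40th percentile left out. Of 12 other Polycomb group genes in the wider list, 0 had a called interaction, against 9.08% of all probe sets. In irradiated flies Psc and Su(z)12 were lower in Dsup lines, while Sce was -0.25 ± 0.10 (SE, adjusted p = 0.133) and esc -0.39 ± 0.13 (SE, adjusted p = 0.0695), neither of them called. Psc and Sce belong to the complex PRC1, in which Sce is the ubiquitin ligase for histone H2A. Levels of Sce were 4.21, 4.03, 4.18 and 4.30 in untreated controls and 4.34, 4.47, 4.51 and 4.72 in untreated Dsup lines, against 4.72, 4.71 and 4.74 in irradiated controls and 4.57, 4.56, 4.53 and 4.23 in irradiated Dsup lines. The untreated controls were lowest and Dsup lines read alike in both treatments, apart from irradiated line 4 at 4.23. Sce rose by 0.54 ± 0.10 (SE, 1.46-fold, adjusted p = 0.00110) in controls, with 0.60 and 0.50 within spike-in sets 1 and 2, and changed by -0.04 ± 0.10 (SE, adjusted p = 0.824) in Dsup lines. The interaction was -0.58 ± 0.14 (SE, adjusted p = 0.0206), with an adjusted p of 0.0506 when the irradiated controls did not enter the spread. It was lost when any 1 of the 3 irradiated controls was left out, with an adjusted p of up to 0.0552. Untreated Dsup lines were higher by 0.33 ± 0.10 (SE, adjusted p = 0.0428), which was called in 5 of 15 fits with an array left out, had an adjusted p of 0.0860 without the irradiated controls in the spread and 0.0687 with line as a block and was -0.36 as deposited.

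For Psc, levels were 3.18, 3.24, 3.20 and 3.18 in untreated controls and 3.34, 3.20, 3.46 and 3.41 in untreated Dsup lines, against 3.81, 3.53 and 3.56 in irradiated controls and 3.28, 3.39, 3.3 and 3.3 in irradiated Dsup lines. The irradiated controls exceeded every other array, and irradiated control 1 stood highest. Their mean was 3.636, while the means of untreated controls, untreated Dsup lines and irradiated Dsup lines were 3.201, 3.355 and 3.320. Those lie near or below the dim cutoff of 3.352. The rise in controls was 0.44 ± 0.08 (SE, 1.35-fold, adjusted p = 0.00107), with 0.46 and 0.37 within spike-in sets 1 and 2, and Dsup lines changed by -0.03 ± 0.08 (SE, adjusted p = 0.783). The interaction was -0.47 ± 0.11 (SE, adjusted p = 0.0190), with -0.53 and -0.40 within the sets, and its adjusted p rose to 0.0668 without irradiated control 1. In irradiated flies the difference of Dsup lines from controls was -0.32 ± 0.08 (SE, 1.25-fold, adjusted p = 0.0223), which had an adjusted p of up to 0.151 with an array left out and was lost without irradiated control 1, irradiated Dsup line 3 or line 4.

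Su(z)12, a subunit that PRC2 needs to methylate histone H3, was the Polycomb gene that fell in Dsup lines. Levels were 5.76, 5.77, 5.93 and 5.77 in untreated controls and 6.08, 5.88, 5.68 and 5.84 in untreated Dsup lines, against 5.86, 5.82 and 5.84 in irradiated controls and 5.47, 5.38, 5.59 and 5.26 in irradiated Dsup lines. The irradiated Dsup lines lay below every other array. The change was -0.45 ± 0.09 (SE, 1.36-fold, adjusted p = 0.00317) in Dsup lines, with -0.61 and -0.39 within spike-in sets 1 and 2, and the deposited change was 0.01 beside an all-probe-set median of 0.47. In controls the change was 0.03 ± 0.10 (SE, adjusted p = 0.838). After radiation the difference of Dsup lines from controls was -0.41 ± 0.10 (SE, 1.33-fold, adjusted p = 0.0123), with -0.37 and -0.43 within the sets, a call lost without irradiated control 1 (adjusted p = 0.0569). The interaction, -0.48 ± 0.13 (SE, adjusted p = 0.0365), was called in 5 of 15 fits with an array left out and had an adjusted p of 0.0794 without the irradiated controls in the spread.

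The methyltransferase E(z), its partner esc and the histone reader Pc were called in no comparison. Their log2 changes ran from -0.16 to 0.25 for E(z), from -0.39 to 0.09 for esc and from -0.31 to 0.30 for Pc. The closest to the threshold was esc between irradiated genotypes (adjusted p = 0.0695).

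Among the heterochromatin proteins, Su(var)3-7, a zinc finger partner of HP1, rose in both genotypes, at dim levels. They were 2.70, 2.60, 2.35 and 2.33 in untreated controls and 2.34, 2.36, 2.40 and 2.39 in untreated Dsup lines, against 3.06, 3.05 and 3.07 in irradiated controls and 2.97, 2.59, 2.53 and 2.59 in irradiated Dsup lines. Irradiated Dsup line 1 sat near the irradiated controls and lines 2 to 4 lay within the range of untreated controls, though above the untreated Dsup lines. The 3 irradiated controls share 1 deposited Su(var)3-7 value, so leaving out 1 of them could barely move their mean. The rise in controls was 0.57 ± 0.11 (SE, 1.48-fold, adjusted p = 0.00113), called under all 13 other settings and with every array left out. In Dsup lines it was 0.30 ± 0.10 (SE, adjusted p = 0.0494), called in 3 of 15 fits with an array left out, with an adjusted p of 0.0880 without the irradiated controls in the spread and 0.0597 with line as a block. The fits within spike-in sets 1 and 2 gave 0.41 and 0.73 in controls and 0.62 and 0.19 in Dsup lines. After radiation Dsup lines were -0.39 ± 0.11 (SE, adjusted p = 0.0293) relative to controls, with -0.09 and -0.50 within the sets and an adjusted p of 0.0626 without the irradiated controls in the spread.

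HP4, a protein that binds HP1, rose in controls only by the test, and the difference in response was not called. Levels were 5.85, 5.67, 5.78 and 5.53 in untreated controls and 6.10, 5.36, 6.01 and 5.78 in untreated Dsup lines, against 6.31, 6.27 and 6.29 in irradiated controls and 6.13, 5.68, 5.85 and 5.78 in irradiated Dsup lines. The irradiated controls lay above all other arrays. The rise was 0.58 ± 0.15 (SE, 1.50-fold, adjusted p = 0.00756) in controls, the change in Dsup lines 0.05 ± 0.14 (SE, adjusted p = 0.837), and the interaction -0.54 ± 0.20 (SE, adjusted p = 0.118), which was called with line as a block (adjusted p = 0.0264). A second, dim HP4 probe set was not called in any comparison. The genes of HP1a, HP1b and HP1c were called in none. HP1a, the main heterochromatin protein of the family, stayed between 6.85 and 7.15 on all 15 arrays, and HP1c had the largest change of the 3, 0.32 ± 0.14 (SE, adjusted p = 0.0801) in controls.

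Of the histone variants, His2Av, the H2A variant of flies that is phosphorylated at DNA breaks, rose in controls. Levels were 7.53, 7.42, 7.66 and 7.60 in untreated controls and 7.58, 7.46, 7.49 and 7.72 in untreated Dsup lines, against 7.88, 7.81 and 7.82 in irradiated controls and 7.72, 7.51, 7.55 and 7.63 in irradiated Dsup lines. The irradiated controls lay above all other arrays. The rise was 0.28 ± 0.08 (SE, 1.22-fold, adjusted p = 0.0183), with 0.37 and 0.18 within spike-in sets 1 and 2, and was lost without untreated control 2 or irradiated control 1, with an adjusted p of up to 0.0758. In Dsup lines the change was 0.04 ± 0.08 (SE, adjusted p = 0.735), and the interaction was -0.24 ± 0.12 (SE, adjusted p = 0.220), so a difference between genotypes was not shown. BigH1, a linker histone of germ cells and early embryos, was not called, with 0.02 ± 0.14 (SE, adjusted p = 0.924) in controls and 0.36 ± 0.13 (SE, adjusted p = 0.0626) in Dsup lines. D1, an AT-hook protein that binds satellite DNA, was not called either, with changes from -0.21 to 0.06.

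LBR, the lamin B receptor of the inner nuclear membrane, was the 1 gene called in opposite directions after radiation. Levels were dim, at 2.78, 2.97, 2.88 and 2.20 in untreated controls and 3.35, 3.00, 3.09 and 3.15 in untreated Dsup lines. After radiation they were 3.24, 3.22 and 3.24 in controls and 2.75, 2.72, 2.70 and 2.29 in Dsup lines. Untreated Dsup lines and irradiated controls overlapped at the top, and the irradiated Dsup lines overlapped the untreated controls. LBR rose by 0.53 ± 0.16 (SE, 1.44-fold, adjusted p = 0.0188) in controls and changed by -0.53 ± 0.15 (SE, 1.45-fold, adjusted p = 0.0187) in Dsup lines. Within spike-in sets 1 and 2 the changes were 0.36 and 0.70 in controls and -0.60 and -0.51 in Dsup lines. The interaction was -1.06 ± 0.22 (SE, adjusted p = 0.00780), with -0.95 and -1.21 within the sets, and was called with every array left out in turn. As the 3 irradiated controls share 1 deposited LBR value, leaving out 1 of them could barely move their mean. After radiation the difference of Dsup lines from controls was -0.62 ± 0.16 (SE, 1.53-fold, adjusted p = 0.0204), a call lost without any 1 of the irradiated controls or without irradiated Dsup line 4, with an adjusted p of up to 0.0723. Leaving out irradiated Dsup line 4 also ended the call in Dsup lines (adjusted p = 0.0606), and leaving out any 1 irradiated control that in controls, with an adjusted p of up to 0.0555. Before radiation the difference was 0.44 ± 0.15 (SE, adjusted p = 0.0676).

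The insulator gene mod(mdg4), whose trans-spliced transcripts encode many proteins with a shared BTB domain, had 22 probe sets, 11 of them below the 40th percentile. The brightest rose by 0.26 ± 0.10 (SE, 1.20-fold, adjusted p = 0.0453) in controls and by 0.29 ± 0.09 (SE, 1.22-fold, adjusted p = 0.0301) in Dsup lines. Levels on it were 4.93 ± 0.20 and 4.86 ± 0.03 in untreated controls and Dsup lines and 5.20 ± 0.01 and 5.15 ± 0.10 in irradiated ones (mean ± SD). Both calls were lost without the irradiated controls in the spread (adjusted p = 0.0798 and 0.0609), and in controls with line as a block (adjusted p = 0.0619). The difference between irradiated genotypes was -0.04 ± 0.10 (SE, adjusted p = 0.825) and the interaction 0.03 ± 0.13 (SE, adjusted p = 0.928), neither of them called. The mean of all 22 moved by -0.07 in controls.

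Across the 22, radiation in controls gave 3 probe sets higher, 5 lower and 14 not called, with changes from -0.48 to 0.51. In Dsup lines 3 were higher, 3 lower and 16 not called, from -0.54 to 0.71. A pair of well-lit probe sets, at mean levels of 4.61 and 4.30, fell in both genotypes, by 0.44 and 0.48 in controls and by 0.54 and 0.36 in Dsup lines. Between untreated genotypes 5 were lower in Dsup lines and 0 higher, and between irradiated genotypes 1 was higher and 4 lower. The interaction was called for 3, of which a dim probe set at 2.39 had the largest, 1.04. Which transcript each probe set reports is not given in the annotation used here.

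**Figure D4:**
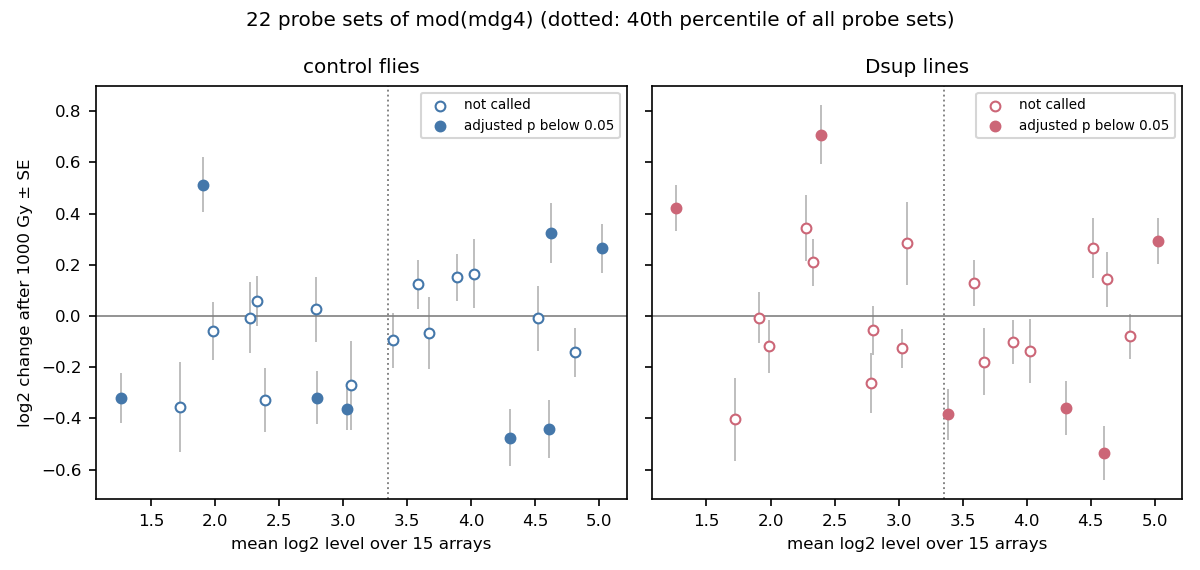
Each point is 1 of the 22 mod(mdg4) probe sets, with its mean log2 level over 15 arrays on the horizontal axis and its log2 change after 1000 Gy with SE on the vertical axis, in control flies (left) and Dsup lines (right). Filled points have an adjusted p below 0.05 and lie on both sides of 0 in each panel, from -0.48 to 0.51 among controls.

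Over the whole set, 16 of the 39 genes were called in no comparison and 23 in at least 1, as were 48.7% of all probe sets. E(bx), osa, trx and ash2 were lower after radiation in both genotypes, and Su(var)3-7, Sirt1 and mod(mdg4) higher in both. Another 10 were called in controls alone (brm, mor, Chd1, Mi-2, asf1, Psc, Sce, HP4, His2Av and Ada2b) and 3 in Dsup lines alone (Chd3, CAF1-p180 and Su(z)12). For these 13, a difference in response was called for asf1, Psc, Sce, Ada2b, CAF1-p180 and Su(z)12, and not for the other 7.

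Other genes of the same complexes and pathways, 158 with a probe set, were compared as a wider list. After radiation 60 were called in controls, 28 higher and 32 lower, which is 38% against 34% of all probe sets, and 23 in Dsup lines, 9 higher and 14 lower, or 14.6% against 21.3%. Between genotypes 11 were called untreated (6.96% against 10.7%) and 13 irradiated (8.23% against 12%), and 6 in the interaction (3.8% against 9.08%). The share called in the wider list was thus below that of all probe sets in 4 of the 5 comparisons. The largest rises in controls were those of escl, a close relative of esc, at 2.52 ± 0.27 (SE, adjusted p = 1.08e-05), and of the nuclear envelope genes bocks at 1.36 ± 0.19 (SE, adjusted p = 0.000113) and Ote at 1.08 ± 0.16 (SE, adjusted p = 0.000146), with the spindle matrix and interband protein gene Chro at 1.14 ± 0.22 (SE, adjusted p = 0.00119). In Dsup lines escl rose by 1.39 ± 0.25 (SE, adjusted p = 0.00131), Chro by 0.68 ± 0.21 (SE, adjusted p = 0.0288), bocks by 0.65 ± 0.18 (SE, adjusted p = 0.0186) and the insulator protein gene CTCF by 0.53 ± 0.16 (SE, adjusted p = 0.0325).

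Falls in controls were led by the Polycomb group gene crm at -1.20 ± 0.31 (SE, adjusted p = 0.00726), the deacetylase HDAC11 at -1.14 ± 0.13 (SE, adjusted p = 1.62e-05), the Mediator subunit skd at -0.86 ± 0.21 (SE, adjusted p = 0.00501) and the PRC2 partner Jarid2 at -0.62 ± 0.14 (SE, adjusted p = 0.00367). In Dsup lines they were led by the PRC2 accessory gene jing at -0.91 ± 0.11 (SE, adjusted p = 7.18e-05), HDAC11 at -0.71 ± 0.12 (SE, adjusted p = 0.000807), the H3 methyltransferase gpp at -0.65 ± 0.10 (SE, adjusted p = 0.000585) and the topoisomerase Top3alpha at -0.54 ± 0.15 (SE, adjusted p = 0.0174). After radiation, Ssrp, a subunit of the histone chaperone FACT, was -0.99 ± 0.23 (SE, adjusted p = 0.0106) in Dsup lines relative to controls. Also lower were escl (-0.88), bocks (-0.85) and baf (-0.61), the last a DNA-bridging protein of the nuclear envelope, and the remodeller Etl1 was higher by 0.57 ± 0.08 (SE, adjusted p = 0.000702). Before radiation, those called higher in Dsup lines were jing (0.63), Usp7 (0.50), cid (0.34) and the chaperone gene Hira, at 0.29 ± 0.07 (SE, adjusted p = 0.0121). The largest differences downward were those of the SWI/SNF subunit gene polybromo at -0.51 ± 0.13 (SE, adjusted p = 0.0223), Hmr (-0.45), Sirt7 (-0.38) and Elba2 (-0.37). Levels of escl, jing, cid and Elba2 averaged below the 40th percentile.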

How the data were processed

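Transcript levels were measured on Affymetrix 3' arrays of whole male flies, 1 array per sample of 25 flies. The deposited values are log2 probe set levels. How probes were summarised and normalized is not stated in the labels or files; precision is set by how many arrays there are. From 18952 probe sets, 183 Affymetrix controls were removed and the 15 arrays were quantile-normalized together, because the deposited log2 values carry an offset for each group. A model with 1 mean per group was fitted with limma 3.58.1 in R 4.3.3, with empirical Bayes moderation, 2-sided tests and Benjamini-Hochberg adjustment over 18769 probe sets, and was tested on simulated data. Of these probe sets, 13647 had 1 gene symbol, 402 several and 4720 none; genes were named from 1 symbol only, by the brightest probe set. CAF1-p180, CAF1-p105 and HP1a are synonyms that RefSeq lists for genes whose annotated symbol ends in a number. The annotation names no genome build, so no coordinates or sequences are printed. The members and lists were chosen with earlier results of these data known. Called genes are given with values, at most the 8 largest rises and 8 largest falls of a comparison, with all genes of a role group of at most 4 that holds a call. Of the wider list at most 4 rises and 4 falls are drawn on. Same-numbered Dsup arrays are the same transgenic line by the labels, so line was fitted as a replicate block as an alternative; deviations of untreated and irradiated arrays of a line from their group means correlated at 0.03, 0.10, -0.09 and -0.13 for lines 1 to 4. Control numbers pair nothing in the labels. Nothing says that control arrays come from separate stocks, so the genetic background of the Dsup lines and the transgene cannot be told apart. Estimating the spread without the irradiated controls, and leaving them out of the fit, were added after seeing the data.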

Additional observations from a re-analysis of the deposited data

Results flagged for a closer look

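In 9 of 117 sets of 4 arrays of a gene in a group, 1 array stood apart from the other 3 by a gap above Dixon's critical value for 4 arrays, taken as a share of the whole range of the set; chance does so in about 1 of 20 sets. Of these, 4 were irradiated Dsup line 1. For Iswi that array read 7.01 and the other lines 6.63 to 6.69, a gap of 0.833 of the range. For Pc it read 4.73 against 4.42 to 4.43 (0.954), for ash2 5.54 against 5.92 to 5.99 (0.843), and for Su(var)3-7 2.97 against 2.53 to 2.59 (0.863). This array is also the only irradiated Dsup array of spike-in set 1. Irradiated Dsup line 4 stood apart for Sce, at 4.23 against 4.53 to 4.57 (0.899), and for LBR, at 2.29 against 2.70 to 2.75 (0.886). Untreated control 4 stood apart for Chd1, at 6.14 against 5.82 to 5.87 (0.839), and for HP1c, at 5.65 against 5.13 to 5.18 (0.908). Untreated control 3 stood apart for Su(z)12, at 5.93 against 5.76 to 5.77 (0.918).

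The radiation response differed between the genotypes by the interaction test for 8 genes. The interaction, Dsup response minus control response, was -1.26 for asf1, -1.29 for Ada2b, -1.06 for LBR, -0.58 for Sce, -0.48 for Su(z)12 and -0.47 for Psc. It was 0.59 for trx and 0.56 for CAF1-p180.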

How the results depend on the processing

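The counts of called genes, 4 between untreated genotypes, 11 between irradiated genotypes, 18 with radiation in controls, 11 in Dsup lines and 8 in the interaction, moved with several choices, and the cause was not tested. On the values as deposited they were 38, 30, 25, 32 and 10, against 89.2%, 61.8%, 49.5%, 77.2% and 22.9% of all probe sets. With probe sets below the 40th percentile left out, they fell to 0 (8 at an unadjusted p below 0.05), 5, 7 in Dsup lines and 1 in the interaction. That interaction call was asf1, which passed the cutoff through the irradiated controls. The shares of all probe sets were then 2.89%, 4.24%, 17% and 1.22%. With the 3' minus 5' covariate the counts were 1, 7, 7, 5 and 3, against 8.07%, 9.98%, 8.98%, 10.7% and 5.09% of all probe sets. Within spike-in set 2, of 9 arrays, the counts were 0 between untreated genotypes (5 unadjusted) and 4 in Dsup lines. The shares of all probe sets there were 0.165% and 8.88%. The other comparisons within set 2 rest on irradiated control 3 as the only irradiated control, so their counts are not given. Within set 1, of 6 arrays, 11 genes were called with radiation in controls, against 17.6% of all probe sets. The other comparisons within set 1 rest on 1 Dsup array per treatment, assumed to vary like the controls. They say nothing about stability, and their counts are not given. Between untreated genotypes trend and robust moderation called 2, the groups compared alone 0 (7 unadjusted), and the fit without irradiated controls 1. The shares of all probe sets were 10.8%, 2.7% and 6.07%. With the spread estimated without the irradiated controls, the calls were 1 and 5 between genotypes and 4 in the interaction. All probe sets then had 6.07%, 8.09% and 5.18% called. Ribosomal centring left 5 interaction calls, where 7% of all probe sets were called.

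With Dsup line as a replicate block, the counts were 3, 11, 18, 10 and 10, against 10.8%, 12.7%, 34.3%, 21.5% and 9.43% of all probe sets. Between untreated genotypes Sce and HDAC1 lost their calls and ash2 gained one, HP4 and CAF1-p180 exchanged theirs between irradiated genotypes, Chd3 and mod(mdg4) theirs with radiation in controls, Su(var)3-7 lost its call in Dsup lines, and ash2 and HP4 were gained in the interaction. With a block that also takes the control numbers, which pair nothing in the labels, there were 3 calls between irradiated genotypes and 4 in the interaction. The shares of all probe sets were 8.18% and 5.09%. Leaving out each array in turn gave 1 to 4, 2 to 12, 12 to 19, 8 to 12 and 3 to 9 calls.

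On the deposited scale the sign turned for 20, 19, 7, 16 and 8 of the 39 genes in the 5 comparisons. Those described under the rule for named genes and called on at least 1 scale were, between untreated genotypes, Ada2b (-0.53), asf1 (-0.22), HDAC1 (-0.31), Nurf-38 (-0.45) and Sce (-0.36). Between irradiated genotypes they were brm (-0.31), CAF1-p180 (-0.0506), Chd1 (-0.0802), HDAC1 (-0.36), Mi-2 (-0.15), mor (-0.11), osa (-0.32) and Snr1 (-0.45). With radiation in controls they were brm (0.0333), Mi-2 (0.00434) and Nurf-38 (0.34). In Dsup lines they were brm (0.26), Chd1 (0.24), Mi-2 (0.38), mor (0.40), Nurf-38 (0.43), Snr1 (0.40) and Su(z)12 (0.00918). For mod(mdg4) the mean of its probe sets turned the change in controls to -0.0740.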
